A study of Rattus norvegicus and Mus musculus and Macaca mulatta with 84 samples.

Results

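Glutathione S-transferases (GST), UDP-glucuronosyltransferases (UGT) and cytosolic sulfotransferases (SULT) were followed in liver RNA of rats at different durations of type 2 diabetes and of mice given an inhibitor of the microRNA miR-29. The genes were chosen by symbol alone: Gst followed by a class letter (a, m, p, t, k, o or z) and a number, Ugt1, Ugt2 or Ugt3 followed by a or b, and Sult followed by a number. They numbered 111 of the 81194 gene entries in the 2 RNA tables, 40 of 32754 in the rat table and 71 of 48440 in the mouse table. Of these, 31 in rats (18 GST, 5 UGT and 8 SULT) and 51 in mice (20 GST, 16 UGT and 15 SULT) had a mean of at least 10 normalised counts over their table and were tested. The remaining 9 rat and 20 mouse entries were under that mean, and 2 and 7 of them were at 0 in every library.

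These enzymes carry out phase II of detoxification, in which a drug, pollutant, hormone, bile pigment or product of lipid peroxidation is joined to a soluble group so that it can be exported into bile or urine. GSTs add glutathione to electrophiles, UGTs of the endoplasmic reticulum add glucuronic acid from UDP-glucuronate, and SULTs of the cytosol add sulfate from the activated donor PAPS. In hepatocytes many of their genes are known targets of the oxidant sensor Nrf2 (gene Nfe2l2) and of the xenobiotic receptors CAR (Nr1i3), PXR (Nr1i2) and AhR (Ahr), and in rodents several SULT genes differ between the sexes under the control of growth hormone.

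Polyadenylated RNA was sequenced from 31 liver samples among the 84 samples of the series. All 20 rats were of the UCD-T2DM strain, which becomes obese and insulin resistant before it develops type 2 diabetes, and fell into a prediabetic group (n = 5) and groups with diabetes for 2 weeks (n = 4), 3 months (n = 5) and 6 months (n = 6). All 11 mice were C57BL/6J, 5 of them given a locked nucleic acid (LNA), a chemically stabilised antisense oligonucleotide, directed at miR-29 (called LNA-29 below) and 6 controls. The labels give neither a lean or non-diabetic rat group, nor ages, the dose, the oligonucleotide or vehicle of the control mice, or the time after treatment. The reference for rats was therefore the prediabetic group, which carries the same genotype, and duration of diabetes and age cannot be told apart. The rat labels number the animals separately; the mouse labels give run names only, so p-values there measure the spread between samples, which may be technical.

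The values were normalised counts, scaled by the authors between libraries and not divided by gene length, so they compare libraries for 1 gene and not genes with each other. Library sums ran from 37623525 to 49858906 normalised counts in rats and from 43341525 to 52750017 in mice. Albumin and the other hepatocyte markers were present in every library (13 rat and 14 mouse identifiers, none at 0 throughout). All rat libraries held Y-linked transcripts, and all mouse libraries held Xist with Kdm5d and Eif2s3y at 0, so each species was represented by 1 sex. By these transcripts the rats were male and the mice female. Near-identical neighbours (the mu and alpha GSTs, Ugt1a, Ugt2b and Sult2a genes) can share reads that the counting may split, and values for single members are uncertain to that degree.

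In rats transferases passed the test against prediabetic animals at 3 and 6 months of diabetes and not at 2 weeks. At 2 weeks 0 of 31 transferases passed the test against prediabetic rats (limma on log2 of the normalised count + 1, Benjamini-Hochberg adjusted p under 0.05 over all 13640 genes tested), beside 0% of all genes; at an unadjusted p under 0.05 there was 1, the theta-class Gstt1 (-0.41, adjusted p = 0.484), beside 7.9% of all genes. At 3 months 5 of 31 passed, 2 higher and 3 lower, a share near the 16.5% of all genes (7.76% higher and 8.72% lower). At 6 months 12 passed, 6 higher and 6 lower, which is 38.7% of the tested members beside 21.1% of all genes, 11% higher and 10% lower. The median log2 change over the 31 members was -0.12 at 3 months and -0.15 at 6 months, beside 0.02 and 0.007 over all genes. The members did not move as 1 group: at 6 months they ran from -1.10 (Sult1c3) to 3.09 (Gstt3) among those that passed, with both directions inside the mu class. Groups that did not overlap were found for 1 member at 2 weeks (Ugt2b35), beside 3.73% of all genes. At 3 months there were 4 of 31 (Gsta3, Gstm1, Gstm4 and Gstt3), a share near the 12% of all genes. At 6 months there were 7 (Gsta3, Gstm1, Gstm3, Gstm6, Gstt3, Sult1c3 and Ugt1a9), beside 9.8%. In bulk liver, fewer cells of a type and less RNA per cell cannot be told apart. Without 3-month replicate 1 the 3-month count was 3, and without the library least like the others in each group (prediabetic replicate 2 and 6-month replicate 2) the 6-month count was 9.

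Markers of liver cell types were read over the same comparisons. Over all genes 7.76% were higher and 8.72% lower at 3 months, and 11% and 10% at 6 months. The counts of bile duct markers at 3 months and of hepatocyte markers at 6 months were near these shares. Of 11 tested Kupffer cell and macrophage markers 10 were higher at 3 months and 10 at 6 months, and their summed level ran from 16209 to 24777 in prediabetic rats, from 24100.1 to 55691 at 3 months and from 25169 to 73291 at 6 months. Stellate and fibroblast markers were higher for 5 and 4 of 11 (sums of 3963 to 6891, 7575 to 10689.8 and 6164 to 9577), and bile duct markers for 1 and 5 of 11 (sums of 1498 to 2623, 1536 to 3879 and 2093 to 3412). Lymphocyte and neutrophil markers were higher for 3 and 4 of 7 (sums of 499 to 695, 929.7 to 3701 and 780.1 to 2902). Sinusoidal endothelial markers were higher for 2 of 9 at both stages. Of 13 hepatocyte markers 3 were lower at 3 months, and 2 were higher and 1 lower at 6 months. At both stages 3 of 8 pericentral markers were higher. Of 7 periportal markers 2 were lower at 3 months, and 0 passed at 6 months. The bile duct keratin Krt7 was at 0 in 3 of 20 libraries and the neutrophil gene Mpo in 15 of 20. The part of these shifts in the transferase results was not tested.

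**Figure D1:**
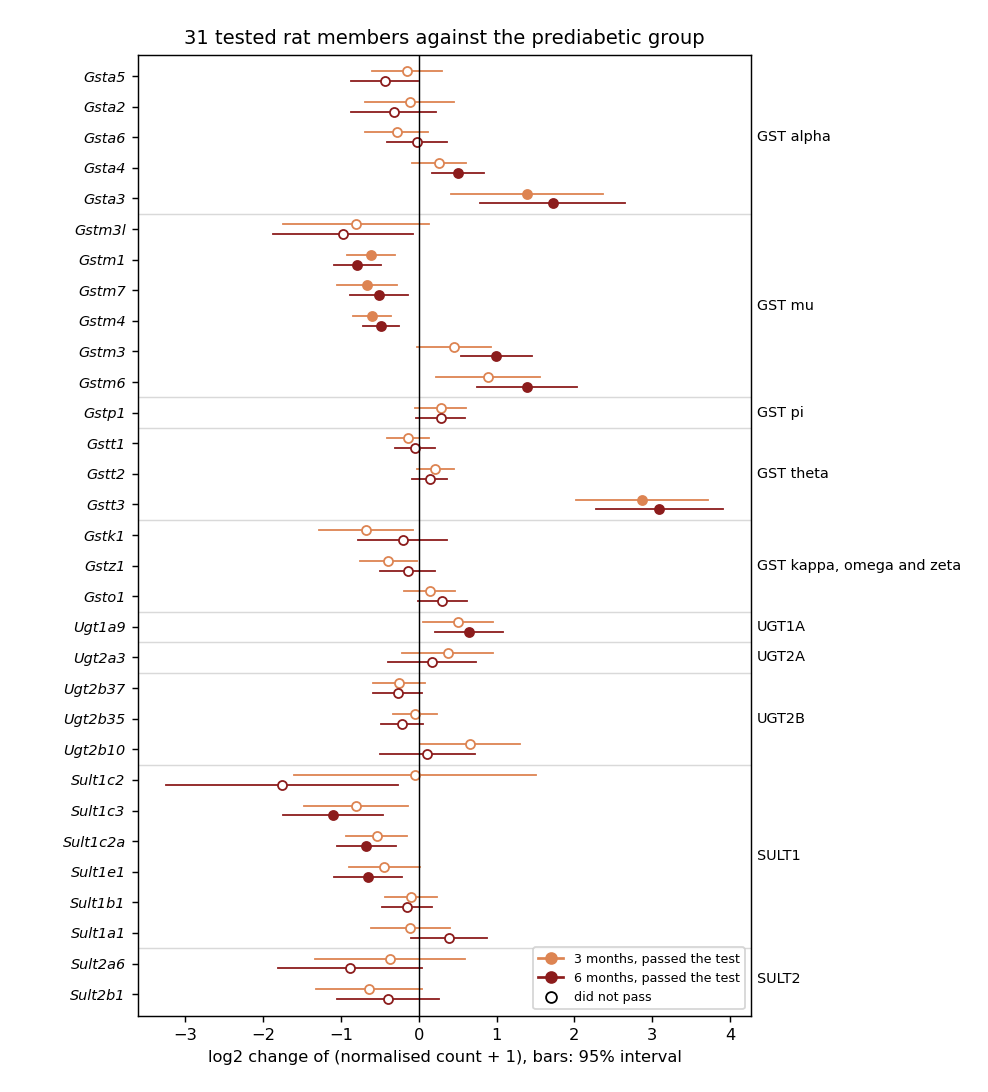
Log2 change of the 31 tested rat members against the prediabetic group at 3 months (orange) and 6 months (dark red), on the scale of the normalised count + 1, ordered by class; bars are 95% intervals and filled points passed the test. Gstt3 and Gsta3 stand to the right, while the mu class and the SULT1 genes hold points on both sides of 0.

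Sequences upstream of the start site were taken from RefSeq (assembly GRCr8) for 34 of the 40 rat members. The 250 bases before each start were searched on both strands for TGACNNNGC, the core of the antioxidant response element bound by Nrf2, and for GCGTG, the core of the element bound by AhR. Each core was searched on its own, and matches may overlap. TGACNNNGC was found in 10.1% of all 33469 promoters and in 5 of the 34 members (Gsta3, Gstm5, Gstm7, Gstp1 and Gstz1). GCGTG was found in 25.9% of all promoters and in 7 of the 34. A match is a description of these letters and no evidence of binding. The windows of 5 members are given here with matches in capitals. Gstt3 had the largest change, and Gsta3 and Gstm7 both hold TGACNNNGC and changed in opposite directions. Of the tested genes placed in RefSeq order, Gstm6 is closest to Gstm7 and changed the other way. Gstp1 holds both cores. The match TGACTTCGC in Gsta3 begins 17 bases before the start, TGACACAGC in Gstm7 begins 14 bases before it and TGACTCAGC in Gstp1 begins 61 bases before it; the last also contains TGACTCA, the letters of an AP-1 site. A second listed start of Gsta3 holds GCGTG and no TGACNNNGC, and the printed windows of Gstt3 and Gstm6 hold neither core.

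Rat Gstt3 promoter, chr20:12874368-12874617, plus strand: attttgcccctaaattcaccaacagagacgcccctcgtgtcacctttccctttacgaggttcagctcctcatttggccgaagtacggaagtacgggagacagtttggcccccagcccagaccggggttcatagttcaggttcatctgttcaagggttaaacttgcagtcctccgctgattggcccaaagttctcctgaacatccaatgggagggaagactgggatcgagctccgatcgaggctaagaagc
Rat Gsta3 promoter, chr9:31154739-31154988, plus strand: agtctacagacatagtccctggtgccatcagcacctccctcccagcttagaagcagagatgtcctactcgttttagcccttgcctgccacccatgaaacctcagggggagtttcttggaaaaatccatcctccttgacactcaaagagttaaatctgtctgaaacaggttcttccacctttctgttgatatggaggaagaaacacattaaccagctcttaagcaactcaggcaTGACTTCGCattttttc
Rat Gstm7 promoter, chr2:198260320-198260569, minus strand: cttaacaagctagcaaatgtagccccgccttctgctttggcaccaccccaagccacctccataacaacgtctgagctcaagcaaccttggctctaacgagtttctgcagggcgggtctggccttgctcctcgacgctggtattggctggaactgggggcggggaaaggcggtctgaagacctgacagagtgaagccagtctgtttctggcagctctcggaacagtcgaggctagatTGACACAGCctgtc
Rat Gstm6 promoter, chr2:198272509-198272758, minus strand: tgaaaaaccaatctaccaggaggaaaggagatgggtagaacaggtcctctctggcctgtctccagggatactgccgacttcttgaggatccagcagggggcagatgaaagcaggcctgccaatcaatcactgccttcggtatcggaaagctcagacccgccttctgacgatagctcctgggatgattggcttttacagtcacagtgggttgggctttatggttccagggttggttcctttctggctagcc
Rat Gstp1 promoter, chr1:210769706-210769955, minus strand: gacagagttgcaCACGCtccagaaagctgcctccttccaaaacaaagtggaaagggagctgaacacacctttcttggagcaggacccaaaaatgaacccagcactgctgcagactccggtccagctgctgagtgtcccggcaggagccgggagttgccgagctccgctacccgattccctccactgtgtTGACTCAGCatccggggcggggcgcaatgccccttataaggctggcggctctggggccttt

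Among the theta-class GSTs, which act on small halogenated and other electrophilic molecules, 1 of 3 tested genes rose at 3 and 6 months. Over all genes 7.76% and 11% were higher. The change of this theta gene was the largest among the 31 tested members in rats. Gstt3 stood at 1102, 3114, 2101, 1934 and 1721 normalised counts in the 5 prediabetic rats and at 2755, 1541, 4905 and 6663 at 2 weeks. It stood at 11971, 17036, 21702, 23056 and 4932 at 3 months and ran from 12173 to 26942 with a median of 14356 at 6 months. Every rat at 3 and 6 months lay above every prediabetic rat; 3-month replicate 5, at 4932, was the only one of them within the range of the 2-week rats. The rise was 7.31-fold at 3 months (log2 change 2.87, 95% interval 2.02 to 3.72, adjusted p = 0.000249) and 8.54-fold at 6 months (log2 change 3.09, 95% interval 2.28 to 3.91, adjusted p = 5.87e-05). At 2 weeks the difference did not pass (log2 change 0.86, 95% interval -0.043 to 1.77, adjusted p = 0.635), although the 2 highest of the 4 rats lay above all prediabetic rats. Gstt1 did not pass at 6 months (log2 change -0.051, 95% interval -0.31 to 0.21, adjusted p = 0.805), nor did Gstt2 (log2 change 0.14, 95% interval -0.084 to 0.37, adjusted p = 0.377). In RefSeq order on chromosome 20 the class reads Gstt2, Gstt4, Gstt1, Gstt3, so Gstt3 lies next to Gstt1. The calls of Gstt3 at 3 and 6 months held without each library in turn.

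**Figure D2:**
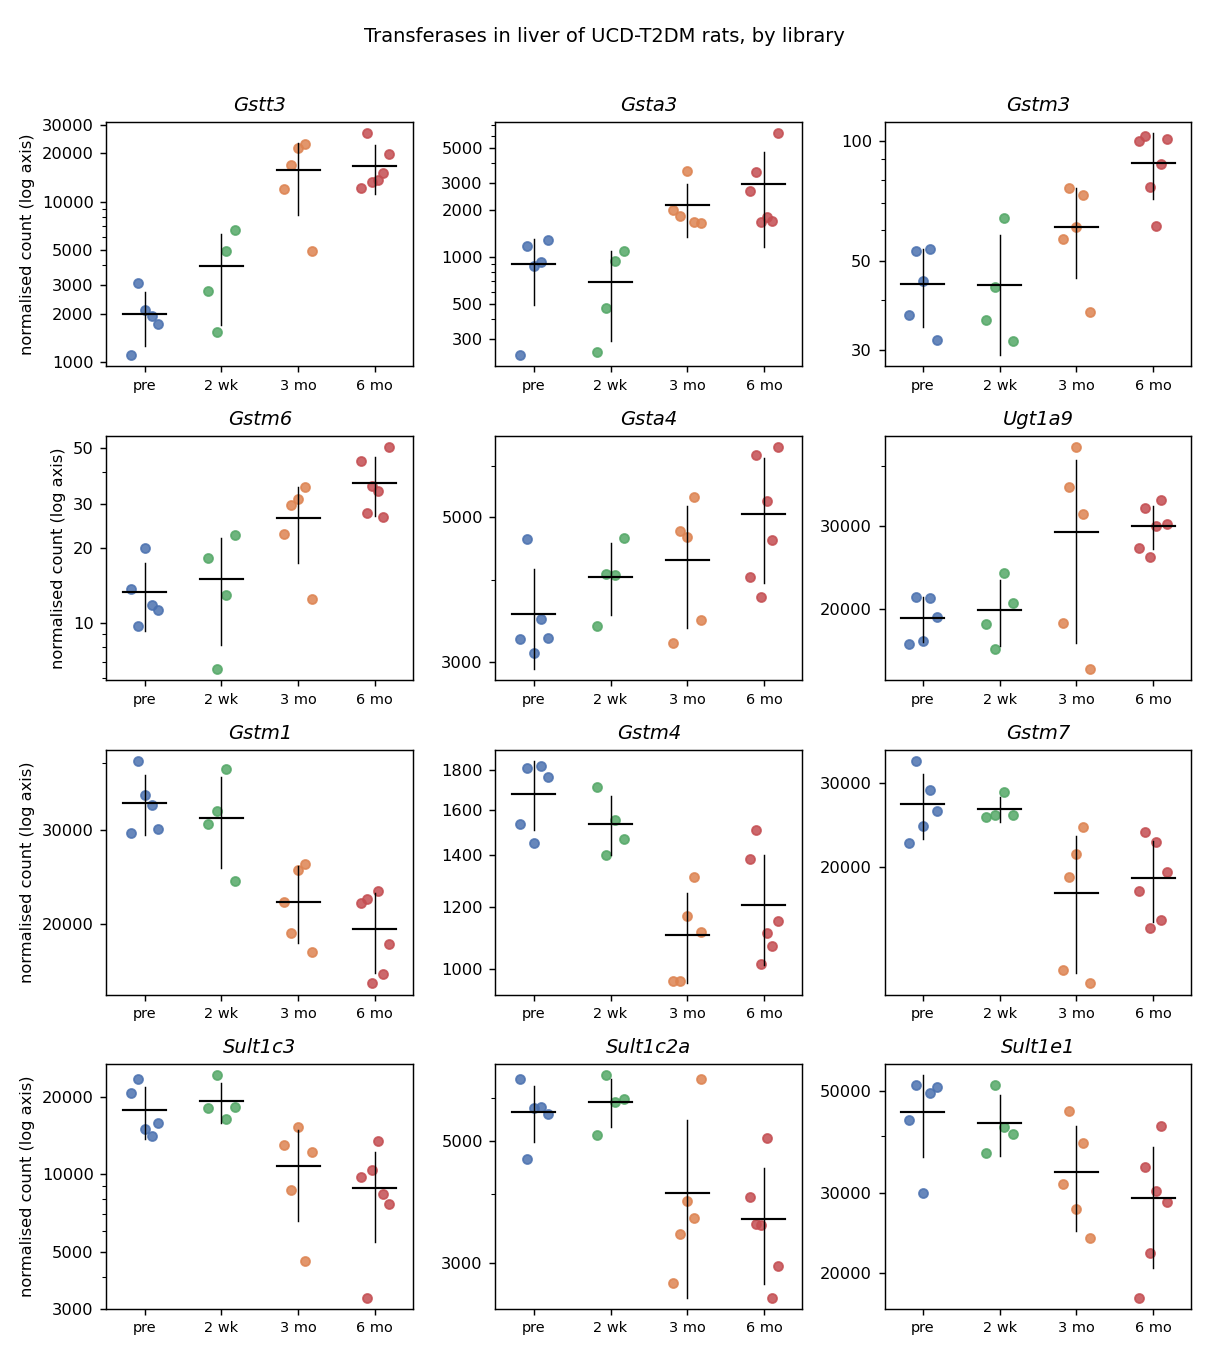
Normalised counts (log axis) of the 12 members that passed the test at 6 months, in every rat library by stage; points are libraries, horizontal bars group means and vertical bars 1 SD. Gstt3 moves from 1102 to 3114 before diabetes to 12173 to 26942 at 6 months, and in Gstm1 and Sult1c3 the 6-month rats lie wholly below the prediabetic ones.

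The alpha class, the main hepatic GSTs for organic hydroperoxides and lipid aldehydes, gave 1 rise among 5 tested genes at 3 months and 2 at 6 months, with no fall. Over all genes 7.76% were higher at 3 months and 11% at 6 months. Gsta3 stood at 237, 1179, 874, 927 and 1295 in prediabetic rats, 249, 471, 944 and 1102 at 2 weeks and 1998, 1826, 3573, 1686 and 1649 at 3 months, and ran from 1675 to 6252 with a median of 2237 at 6 months. The prediabetic and 3-month or 6-month rats did not overlap, and prediabetic replicate 1 was the lowest of its group. Gsta3 rose 2.62-fold at 3 months (log2 change 1.39, 95% interval 0.41 to 2.36, adjusted p = 0.0478) and 3.3-fold at 6 months (log2 change 1.72, 95% interval 0.79 to 2.66, adjusted p = 0.0106). The 3-month call was lost without any 1 of prediabetic replicates 1, 3 or 4 or of 3-month replicates 1, 2, 3, 4 or 5 (adjusted p from 0.0516 to 0.121), or with no filter on low values (adjusted p = 0.0651), without a variance trend in the fit (0.057) or without the library least like the others in each group (0.0556). The 6-month call held without each library in turn. Gsta4, which conjugates the lipid peroxidation product 4-hydroxynonenal, stood at 3244, 4633, 3097, 3486 and 3259 in prediabetic rats and ran from 3768 to 6410.1 with a median of 4956 at 6 months, so that the groups overlapped through prediabetic replicate 2. It rose 1.41-fold at 6 months (log2 change 0.50, 95% interval 0.17 to 0.83, adjusted p = 0.0313) and did not pass at 3 months (0.27, adjusted p = 0.287). Its call was lost without any 1 of prediabetic replicates 1, 3, 4 or 5 or of 6-month replicates 2 or 6 (adjusted p from 0.0632 to 0.0728). Gsta5, known for clearing the epoxide of aflatoxin B1 in rats, averaged 15089 ± 3037 (SD, n = 5) before diabetes and 11193 ± 2695 (SD, n = 6) at 6 months; the difference did not pass (log2 change -0.44, 95% interval -0.87 to -0.0062, adjusted p = 0.139). Gsta2 (-0.32, adjusted p = 0.409) and Gsta6 (-0.021, adjusted p = 0.95) did not pass either. The 2 genes that rose lie on different chromosomes: Gsta4 is on chromosome 8 with Gsta5 and Gsta2, and Gsta3 on chromosome 9 with Gsta6.

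The mu class changed in both directions. Of 6 tested genes 3 were lower at 3 months, and 3 were lower and 2 higher at 6 months. Over all genes 8.72% were lower at 3 months, and 10% were lower and 11% higher at 6 months. Gstm1, a conjugator of epoxides and quinones, stood at 29598, 40283, 34875, 33346 and 30097 in prediabetic rats and at 22052, 19306, 25231, 25965 and 17764 at 3 months, and ran from 15530.1 to 23106 with a median of 20192 at 6 months. All diabetic rats at these stages lay below all prediabetic rats. Gstm1 fell to 0.653 times the prediabetic level at 3 months (log2 change -0.61, 95% interval -0.93 to -0.30, adjusted p = 0.00954) and to 0.579 times at 6 months (log2 change -0.79, 95% interval -1.09 to -0.49, adjusted p = 0.00101). Gstm4 stood at 1537, 1810.2, 1452, 1822 and 1766 before diabetes and at 967, 965, 1171, 1314 and 1115 at 3 months, and ran from 1016 to 1509 with a median of 1133 at 6 months, where 1 of 6 rats reached into the prediabetic range. Its changes were -0.60 (adjusted p = 0.00243) and -0.48 (adjusted p = 0.00534) on the log2 scale. The falls of Gstm1 and Gstm4 held without each library in turn. Gstm7 stood at 22457, 33297, 24456, 28958 and 26276 before diabetes and at 12232, 19078, 21371, 24242 and 11468 at 3 months, and ran from 14934 to 23751 with a median of 18693 at 6 months, overlapping the prediabetic rats at both stages. It fell by 0.67 at 3 months (adjusted p = 0.0204) and by 0.52 at 6 months (adjusted p = 0.046) on the log2 scale. The 3-month call was lost without 3-month replicate 1 (adjusted p = 0.0647) or with only the 2 groups in the fit (adjusted p = 0.0639). The 6-month call was lost without any 1 of prediabetic replicates 2, 3, 4 or 5 or of 6-month replicates 1, 3, 5 or 6 (adjusted p from 0.0571 to 0.101), or with no filter on low values (adjusted p = 0.0653), without a variance trend in the fit (0.0527) or without the library least like the others in each group (0.0636).

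In the other direction, Gstm3 stood at 36.6, 53.1, 44.5, 53.5 and 31.8 in prediabetic rats and at 56.9, 76.3, 60.8, 73.1 and 37.3 at 3 months, and ran from 61.3 to 103 with a median of 93.7 at 6 months, above every prediabetic rat. It rose 1.99-fold at 6 months (log2 change 1.00, 95% interval 0.54 to 1.45, adjusted p = 0.00387) and did not pass at 3 months (0.45, adjusted p = 0.184). Gstm6, with few counts and named here after its values were seen, stood at 13.6, 9.76, 20, 11.8 and 11.3 and ran from 26.4 to 50.6 with a median of 34.6 at 6 months, again without overlap. It rose 2.62-fold (log2 change 1.39, 95% interval 0.75 to 2.03, adjusted p = 0.00397), and at 3 months the change was 0.89, adjusted p = 0.061. Both rises held without each library in turn. Another entry, Gstm3l, did not pass at 6 months (-0.97, adjusted p = 0.115); RefSeq lists that symbol as a synonym of Gstm3, so the 2 entries may describe overlapping models and their opposite signs are uncertain. On chromosome 2 the tested genes that RefSeq places under their own symbol follow each other as Gstm7, Gstm6, Gstm3, Gstm1, Gstm4. Genes without a test are left out, and Gstm3l was tested but has no place of its own in this order. Among the genes placed, the 2 that rose lie between those that fell. Gstm7 and Gstm6, adjacent among them with an entry for a non-coding RNA between, changed in opposite directions.

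**Figure D3:**
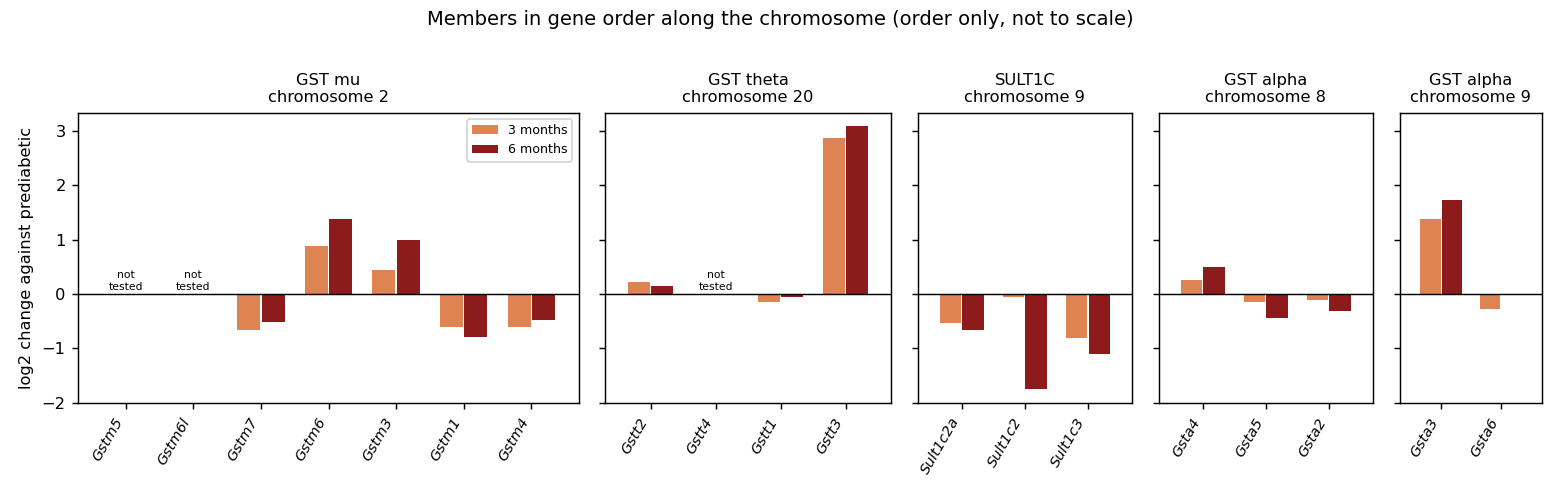
Log2 change against prediabetic rats at 3 months (orange) and 6 months (dark red) for members in gene order along rat chromosomes 2, 20, 9 and 8, order only and not to scale; genes without bars were under the mean of 10. The mu genes hold bars on both sides of 0, Gstt3 stands alone among the theta genes at 2.87 and 3.09, and the SULT1C genes are all below 0; of these bars Sult1c2 at both stages and Sult1c2a and Sult1c3 at 3 months did not pass the test.

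The pi, kappa, omega and zeta GSTs gave no call at any stage in 4 tested genes. Gstp1, the placental form used as a marker of preneoplastic foci in rat liver and also expressed in bile ducts, stood at 398, 593, 352, 336 and 369 before diabetes and at 425, 520.1, 513, 575 and 417 at 3 months, and ran from 411 to 686 with a median of 468 at 6 months. The groups overlapped through prediabetic replicate 2, and the change at 6 months was 0.28, 95% interval -0.031 to 0.59, adjusted p = 0.191. Gstz1, the maleylacetoacetate isomerase of tyrosine breakdown, averaged 19186 ± 2188 (SD, n = 5) before diabetes and 17704 ± 4386 (SD, n = 6) at 6 months (log2 change -0.14, 95% interval -0.49 to 0.21, adjusted p = 0.579). Gstk1 of mitochondria and peroxisomes was at -0.21, 95% interval -0.79 to 0.37, adjusted p = 0.632 and Gsto1 at 0.30, 95% interval -0.015 to 0.61, adjusted p = 0.167. These intervals do not show that the 4 genes stayed level.

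Of 5 tested UGT genes 1 rose at 6 months and 0 at 3 months, a share near that of all genes (21.1% in either direction at 6 months). Ugt1a9, the only Ugt1a symbol in the rat table, stood at 16896, 21171, 17173, 21158 and 19207 before diabetes, 18603, 16459.7, 23880.1 and 20635 at 2 weeks and 18691, 36156, 43953, 31811 and 14938 at 3 months, and ran from 25763 to 33909 with a median of 30062 at 6 months. All 6-month rats lay above all prediabetic rats, while the 3-month rats split into 3 above and 2 within or below the prediabetic range. It rose 1.56-fold at 6 months (log2 change 0.64, 95% interval 0.21 to 1.08, adjusted p = 0.0326); at 3 months the change was 0.50, adjusted p = 0.119. The 6-month call was lost without any 1 of prediabetic replicates 1, 3 or 5 or of 6-month replicates 2, 5 or 6 (adjusted p from 0.0521 to 0.0693) or without the library least like the others in each group (adjusted p = 0.0548). The Ugt1a genes, which glucuronidate bilirubin and phenols, share their last exons, so reads of other first exons may be counted under this symbol. Ugt2b37, of the steroid- and drug-conjugating 2B family, averaged 154272 ± 17899 (SD, n = 5) before diabetes and 128392 ± 22264 (SD, n = 6) at 6 months (log2 change -0.27, 95% interval -0.59 to 0.046, adjusted p = 0.215). Ugt2b35 (-0.22, adjusted p = 0.247), Ugt2b10 (0.11, adjusted p = 0.823) and Ugt2a3 (0.17, adjusted p = 0.694) did not pass either.

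Of 8 tested SULT genes 3 fell at 6 months, all of the SULT1 family, and 0 rose, beside 10% lower and 11% higher over all genes. At 3 months 0 passed, beside 16.5%. The median log2 change of the SULT genes was -0.40 at 3 months and -0.66 at 6 months, beside 0.02 and 0.007 over all genes. Of their 8 values, 8 and 7 were below 0. Sult1c3 stood at 20669.7, 23388, 15012, 14023 and 15779 in prediabetic rats, 18016, 24203, 16374 and 18215 at 2 weeks and 13018, 8717, 15239, 4584 and 12150.4 at 3 months, and ran from 3312 to 13457 with a median of 9047 at 6 months. All 6-month rats lay below all prediabetic rats, and 6-month replicate 2 was lowest. It fell to 0.466 times the prediabetic level at 6 months (log2 change -1.10, 95% interval -1.74 to -0.46, adjusted p = 0.0161), and at 3 months the change was -0.81, adjusted p = 0.0877. Sult1c2a stood at 6478, 4645, 5758, 5779 and 5598 before diabetes and at 2759, 3388, 3889, 3629.5 and 6484 at 3 months, where replicate 5 was as high as the highest prediabetic rats, and ran from 2594 to 5074 with a median of 3522 at 6 months, where replicate 4 reached into the prediabetic range. It fell to 0.627 times at 6 months (log2 change -0.67, 95% interval -1.05 to -0.30, adjusted p = 0.0123), a call that held without each library in turn, as did that of Sult1c3; at 3 months it was at -0.54, adjusted p = 0.0523. The call of Sult1c3 was lost without the library least like the others in each group (adjusted p = 0.055). Sult1c2, between these 2 genes on chromosome 9, ran from 7.7 to 574 with a median of 37.6 at 6 months, a 74.5-fold range, and did not pass (log2 change -1.76, 95% interval -3.25 to -0.27, adjusted p = 0.085).

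Sult1e1, which sulfates and inactivates oestrogens, stood at 43257, 51728, 29929, 49538 and 50992 before diabetes and at 31296, 45402, 27653, 38546 and 23952 at 3 months, and ran from 17692 to 42071 with a median of 29445 at 6 months. At 6 months the groups overlapped through prediabetic replicate 3. It fell to 0.635 times at 6 months (log2 change -0.66, 95% interval -1.09 to -0.22, adjusted p = 0.0307), a call lost without any 1 of prediabetic replicates 1, 2, 4 or 5 or of 6-month replicates 1 or 3 (adjusted p from 0.0501 to 0.077), or with only the 2 groups in the fit (adjusted p = 0.0582) or without the library least like the others in each group (0.0505). At 3 months it was at -0.44, adjusted p = 0.167. Sult2a6, a hydroxysteroid and bile acid sulfotransferase, stood at 34143, 28434, 17451, 30250.5 and 22883 before diabetes, 10514, 63218, 23808 and 22662 at 2 weeks and 33562, 9924, 26590.2, 7557 and 49420.3 at 3 months, and ran from 10571 to 23068 with a median of 12955 at 6 months. Its rats differed 6.01-fold within the 2-week group and 6.54-fold within the 3-month group, and the 6-month change did not pass (log2 change -0.88, 95% interval -1.81 to 0.038, adjusted p = 0.164). Sult1a1, the main phenol sulfotransferase, was at 0.39, 95% interval -0.095 to 0.88, adjusted p = 0.245 at 6 months, and Sult1b1, which acts on thyroid hormones, at -0.15, 95% interval -0.47 to 0.17, adjusted p = 0.522. Sult2b1, which sulfates cholesterol, was at -0.39, adjusted p = 0.397.

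The diabetic stages were also compared with each other; these comparisons share samples with those against prediabetic rats. From 2 weeks to 3 months 2 members passed, beside 2.35% of all genes. Gstt3 was higher (2.01, adjusted p = 0.0252), beside 1.15% of all genes, and Gstm4 lower (-0.48, adjusted p = 0.0453), beside 1.2%. Gstt3 lost its call without any 1 of 2-week replicates 1 or 2 or of 3-month replicates 1, 2 or 3 (adjusted p from 0.0529 to 0.117), or with only the 2 groups in the fit (adjusted p = 0.0848) or without the library least like the others in each group (0.166). Gstm4 lost it without any 1 of 2-week replicates 1, 2, 3 or 4 or of 3-month replicates 1, 2 or 3 (adjusted p from 0.0653 to 0.149), or with no filter on low values (adjusted p = 0.0567), without a variance trend in the fit (0.057), with only the 2 groups in the fit (0.0704) or without the library least like the others in each group (0.0757). The groups did not overlap for 4 members, Gsta3 (1.79, adjusted p = 0.0612), Gstm4, Gstm7 and Sult1c3, beside 8.06% of all genes. From 2 weeks to 6 months 7 members passed, beside 8.82% of all genes (4.66% higher and 4.16% lower), and the groups did not overlap for 8, beside 9.78%. Gstt3 (2.23, adjusted p = 0.00414), Gsta3 (2.13, adjusted p = 0.0119), Gstm6 (1.30, adjusted p = 0.0194) and Gstm3 (1.03, adjusted p = 0.0126) were higher. Sult1c3 (-1.22, adjusted p = 0.0269), Sult1c2a (-0.74, adjusted p = 0.0231) and Gstm1 (-0.68, adjusted p = 0.0118) were lower. Without 2-week replicate 2 the count was 3, and without it and 6-month replicate 2 it was 1, that of Gstt3. Gsta3 lost its call without any 1 of 2-week replicates 1 or 2 (adjusted p from 0.0524 to 0.0547), Gstm6 without 2-week replicate 2 (adjusted p = 0.0959), Sult1c2a without any 1 of 2-week replicates 2 or 4 or of 6-month replicate 5 (adjusted p from 0.0547 to 0.0876) and Sult1c3 without any 1 of 2-week replicates 1, 2 or 4 or of 6-month replicate 5 (adjusted p from 0.0512 to 0.101). Between 3 and 6 months 0 of 31 members passed by limma, beside 0.0147% of all genes (2 genes), and the groups did not overlap for 0, beside 0.85%. At an unadjusted p under 0.05 there were 3, Gstm3 (0.55), Sult1a1 (0.50) and Sult1c2 (-1.71), beside 7.76% of all genes. For Gstt3 the difference between these stages was 0.22 with a 95% interval of -0.59 to 1.04. Ordered by group mean, Gstt3 ran prediabetic, 2 weeks, 3 months and 6 months, with no test passed between the first pair or the last pair.

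The genes that supply the conjugated groups were read from lists in the same fit. Unlike those of the members, the calls of list genes here and below were not rechecked with libraries left out or with other settings. At 2 weeks 0 genes of any of these lists passed. Of 22 tested genes of glutathione supply and use 2 rose and 3 fell at 3 months, and 4 rose and 3 fell at 6 months, beside 16.5% and 21.1% of all genes in either direction, shares that also stand beside the lists that follow. The rises at 6 months were Ggt1, the gamma-glutamyltransferase that breaks down exported glutathione (3.85, adjusted p = 1.51e-05), Gpx2 (2.55, adjusted p = 0.00802), Chac1, which degrades glutathione inside the cell (1.13, adjusted p = 0.0123), and glutathione synthetase Gss (0.56, adjusted p = 0.00698). The falls were Gclc, the catalytic subunit of the rate-limiting enzyme of glutathione synthesis (-0.60, adjusted p = 0.0458), the glutathione peroxidase Gpx1 (-0.55, adjusted p = 0.0432) and the glyoxalase Hagh (-0.55, adjusted p = 0.00755). The median of the list was 0.073 at 6 months. Ggt1 averaged 31.4 ± 16.2 (SD, n = 5) in prediabetic rats and 424 ± 164 (SD, n = 6) at 6 months. Gclc was at -0.19, adjusted p = 0.588 at 3 months. Of 8 microsomal GST and GST-like genes 2 rose and 3 fell at 3 months, and 3 rose and 1 fell at 6 months. Mgst1, the membrane-bound glutathione transferase of the endoplasmic reticulum, fell at both (-0.45, adjusted p = 0.00619 and -0.43, adjusted p = 0.00432), and Mgst3 (-0.96, adjusted p = 0.0373) and Mgst2 (-0.68, adjusted p = 0.0112) fell at 3 months. Hpgds and Clic1 rose at both, by 0.67 and 0.58 at 6 months.

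Of 13 tested genes of sulfate and PAPS supply 5 fell at 3 months and 6 at 6 months, and 0 rose; the others did not pass. Over all genes 8.72% and 10% were lower. Slc26a1, the sulfate transporter of the hepatocyte membrane, had the largest of these falls, from 12164 ± 1883 (SD, n = 5) to 4702 ± 1655 (SD, n = 6) at 6 months (-1.42, adjusted p = 0.000125; at 3 months -0.92, adjusted p = 0.00636). Bpnt1 (-0.37, adjusted p = 0.0298) and 1 of 2 entries named Impad1 (-0.39, adjusted p = 0.00965), phosphatases that clear the by-product of sulfation, and sulfite oxidase Suox (-0.33, adjusted p = 0.0402) also fell. Papss2, the liver PAPS synthase, did not pass at 3 months (0.012, adjusted p = 0.962) or 6 months (-0.15, adjusted p = 0.417). The median change of the list was -0.31 at 6 months beside 0.007 over all genes tested. Of 11 UDP-glucuronate genes 2 fell at 3 months, and 1 rose and 2 fell at 6 months: Pgm1 (-0.48, adjusted p = 0.00122) and Uxs1 (-0.52, adjusted p = 0.00495) fell and Ugcg (0.56, adjusted p = 0.0177) rose. Ugdh, which makes UDP-glucuronate, was at 0.26, adjusted p = 0.363 and -0.09, adjusted p = 0.762. Of 18 other conjugating enzymes and hydrolases 1 rose at 3 months, and 5 rose and 1 fell at 6 months. Acsm3, which activates medium-chain acids, rose at both (1.93, adjusted p = 0.000181 and 2.24, adjusted p = 1.51e-05), the methyltransferase Inmt (3.35, adjusted p = 0.0135) and the glycine transferase Glyat (0.77, adjusted p = 0.00627) rose at 6 months, and the epoxide hydrolase Ephx1 fell (-0.90, adjusted p = 0.000607).

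The regulators known to act on these genes were examined by their own messages and by other targets. Nfe2l2 averaged 4109.6 ± 834 (SD, n = 5) before diabetes and 4236 ± 937 (SD, n = 6) at 6 months (0.037, adjusted p = 0.899), and its inhibitor Keap1 was at -0.22, adjusted p = 0.0525. Nr1i3 rose at 6 months (1.67, adjusted p = 0.0137; at 3 months 1.36, adjusted p = 0.055), Nr1i2 fell at 3 months (-0.67, adjusted p = 0.0352; at 6 months -0.42, adjusted p = 0.144), and Ahr was at -0.19, adjusted p = 0.749 at 6 months. In all, 1 of 22 receptors and regulators rose and 2 fell at 3 months, and 4 rose and 2 fell at 6 months, shares near the 16.5% and 21.1% of all genes. The rises included the small Maf protein Maff (2.32, adjusted p = 0.00729), a partner of Nrf2, and the falls Cebpa (-0.86, adjusted p = 0.00219) and the P450 reductase Por (-1.30, adjusted p = 0.0491). Other Nrf2 targets went both ways. Of 23 tested 7 rose and 3 fell at 3 months, and 5 rose and 7 fell at 6 months. Nqo1, a quinone reductase, rose at both (1.63, adjusted p = 0.0297 and 1.72, adjusted p = 0.0149), as did the conjugate exporter Abcc3 (3.13, adjusted p = 3.36e-05 and 3.33, adjusted p = 6.14e-06), Osgin1 and Akr1b10, while Me1 (-1.18, adjusted p = 0.00856), Ces2g (-1.005, adjusted p = 0.00531), Ephx1 and Tkt (-0.67, adjusted p = 0.00244) fell at 6 months.

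Of 10 tested P450 targets of CAR, PXR and AhR 5 rose and 2 fell at 3 months, and 4 rose and 2 fell at 6 months. The rises included the AhR targets Cyp1b1 (2.80, adjusted p = 0.00466), Cyp1a1 (2.52, adjusted p = 0.016) and Cyp1a2 (1.14, adjusted p = 0.000358). The falls included the CAR target Cyp2b2 (-3.50, adjusted p = 0.000292). Other genes of this list passed in each direction and are not named, so the named genes do not divide the list by receptor. Of 27 growth hormone and sex-dependent liver genes 1 rose and 11 fell at 3 months, and 1 rose and 13 fell at 6 months, with a median of -0.64 beside 0.007 over all genes. They included A1bg (-4.29, adjusted p = 0.00122), Igfals (-1.64, adjusted p = 5.85e-05), the growth hormone receptor Ghr (-1.27, adjusted p = 0.000199) and the male-specific P450 Cyp2c11 (-1.75, adjusted p = 0.00161). A1bg had few counts, with a median of 7.75 and a highest value of 76.9 over the rat libraries, and was at 0 in 3 of them. The rise was Cyp7b1 (2.12, adjusted p = 0.0044). The part of any of these regulators in the transferase changes was not tested.

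In mice the transferases were compared after inhibition of miR-29. The miR-29 family has 3 mature forms that share 1 seed, the stretch at bases 2 to 8 that pairs with target messages; they are given from RefSeq for the rat, as the molecule the inhibitor is directed at, with the seed in capitals. The labels do not say which form the oligonucleotide was designed against.

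rno-miR-29a-3p: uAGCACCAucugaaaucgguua
rno-miR-29b-3p: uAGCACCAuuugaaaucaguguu
rno-miR-29c-3p: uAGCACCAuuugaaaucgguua

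Of 51 tested members 3 passed, all lower in LNA-29 mice, beside 2.43% of all 14596 genes tested, 0.863% lower and 1.57% higher; the same 3 were the only members whose groups did not overlap, beside 3.95% of all genes. The median over members was -0.074 beside 0.00053 over all genes, and 33 of 51 values were below 0 (13 of 16 among the UGTs). At an unadjusted p under 0.05 there were 15 members, beside 19.2% of all genes. Ugt1a5, a UGT1A gene, ran from 4754 to 7469 with a median of 6496 in the 6 controls and stood at 2755, 3647, 3394, 3736 and 3503 in the 5 treated mice. It was lower at 0.546 times the control level (log2 change -0.87, 95% interval -1.11 to -0.63, adjusted p = 0.00172), a call that held without each library in turn. Ugt2b1, a steroid- and drug-conjugating UGT, ran from 3679 to 5675 with a median of 4455 in controls and stood at 3091, 3430.2, 2888, 3275 and 2643 in treated mice (log2 change -0.57, 95% interval -0.82 to -0.33, adjusted p = 0.0245). The mu-class Gstm6 ran from 811 to 1276 with a median of 907 in controls and stood at 610.4, 746, 688, 716 and 541 in treated mice (log2 change -0.52, 95% interval -0.77 to -0.26, adjusted p = 0.0418). For all 3 genes every treated library lay below every control library. Ugt2b1 lost its call without any 1 of LNA-29 replicates 1, 3 or 5 or of control replicate 3 (adjusted p from 0.05004 to 0.0713). Gstm6 lost it without any 1 of control replicates 1, 3, 4, 5 or 6 or of LNA-29 replicates 1, 3, 4 or 5 (adjusted p from 0.05004 to 0.105), or with no filter on low values (adjusted p = 0.0548) or without a variance trend in the fit (0.0689). The count of 3 was 1 without any 1 of LNA-29 replicates 1, 3 or 5 or of control replicate 3, and 7 without LNA-29 replicate 2. Without LNA-29 replicate 2 and control replicate 5 together, the libraries least like their groups and chosen after the data were seen, 13 members passed, 3 higher and 10 lower.

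**Figure D4:**
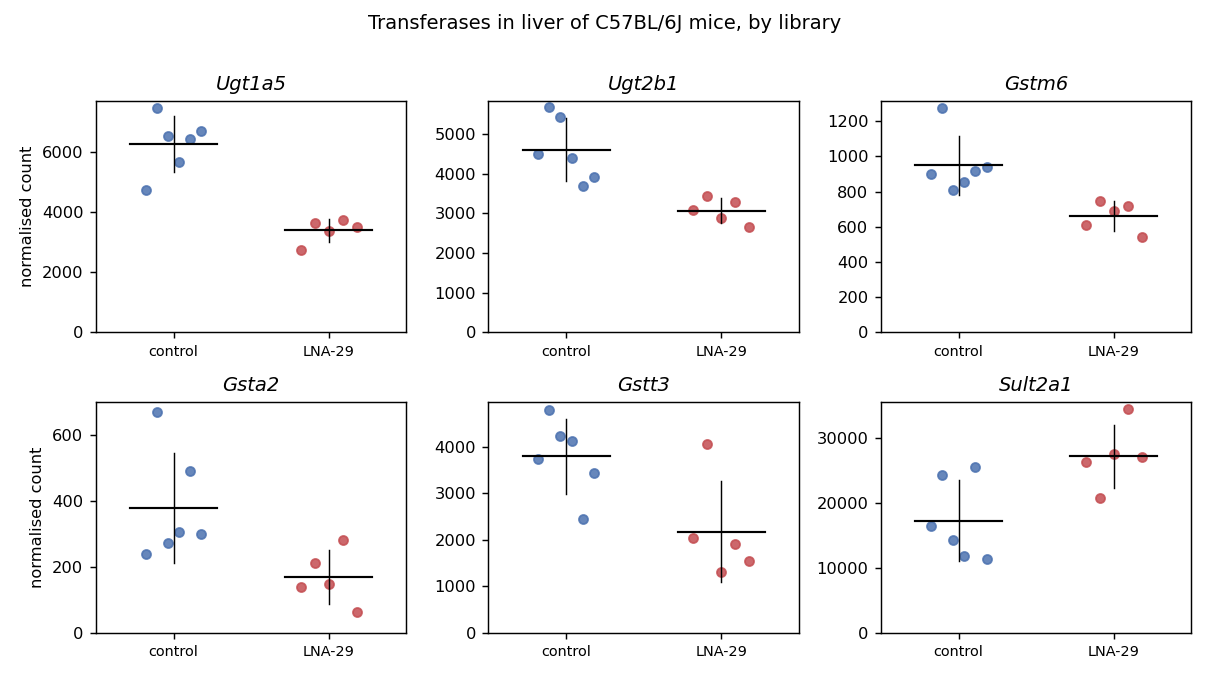
Normalised counts (linear axis from 0) of the 3 members that passed the test in mice (top) and of 3 with large changes that did not (bottom), in every library of the control and LNA-29 groups; horizontal bars are means and vertical bars 1 SD. The groups are separate for Ugt1a5, Ugt2b1 and Gstm6 and overlap for Gsta2, Gstt3 and Sult2a1.

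Several members had changes of like or larger size that did not pass. Gsta2 ran from 239 to 671 with a median of 303 in controls and stood at 140.1, 212, 148, 282 and 63.1 in treated mice (log2 change -1.23, 95% interval -1.99 to -0.46, adjusted p = 0.0861). Gstt3 ran from 2449 to 4783 with a median of 3931 and stood at 2049.6, 4054, 1317, 1916 and 1541 (log2 change -0.89, 95% interval -1.43 to -0.35, adjusted p = 0.0791); LNA-29 replicate 2 was the treated mouse within the control range and control replicate 5 the lowest control. Gstm2 was at -0.57, 95% interval -0.89 to -0.25, adjusted p = 0.0662. In the Ugt1a family 6 of 7 values were below 0, with Ugt1a6b at -0.37, adjusted p = 0.0601, Ugt1a6a at -0.30, adjusted p = 0.188 and Ugt1a1, the bilirubin-conjugating form, at -0.17, adjusted p = 0.319. The group means were nearly equal for Ugt1a10 (79 in controls and 79.2 in LNA-29) and Ugt1a7c (132 and 130). Since the Ugt1a genes share their last exons, these signs may not be separate observations. Ugt1a9 stood apart at 0.56, 95% interval 0.12 to 0.99, adjusted p = 0.156. The other 5 tested Ugt2b genes lay between -0.51 (Ugt2b37) and 0.078 (Ugt2b36), and Ugt2a3 was at -0.40, adjusted p = 0.12.

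The members with the most normalised counts in the other classes, a quantity that also grows with gene length, were read by the same test. Gstm1 was at -0.32, 95% interval -0.59 to -0.041, adjusted p = 0.198, Gsta3 at -0.11, 95% interval -0.38 to 0.16, adjusted p = 0.685, Gstp1 at -0.019, 95% interval -0.26 to 0.22, adjusted p = 0.953 and Gstz1 at -0.069, 95% interval -0.25 to 0.11, adjusted p = 0.706. Gstt1 was at -0.38, adjusted p = 0.13, Ugt2b34 at -0.096, adjusted p = 0.749, Ugt3a2 at -0.074, adjusted p = 0.721 and Sult1a1 at 0.0018, adjusted p = 0.997. None of these passed. The SULT genes gave 0 calls in 15 by limma and 2 at an unadjusted p under 0.05, both of the Sult2a family that sulfates bile acids and steroids. Sult2a1 ran from 11352 to 25544 with a median of 15383 in controls and stood at 26268, 20721, 27489, 34427 and 27067 in treated mice (log2 change 0.71, 95% interval 0.24 to 1.17, adjusted p = 0.0985), and Sult2a2 was at 0.62, adjusted p = 0.177. Control replicates 2 and 5 reached into the treated range for both. Sult2a3 spread most of all tested members, 33.2-fold among controls and 50.3-fold among treated mice; its values were highest in control replicate 5 (1377) and LNA-29 replicate 4 (1894). Sult3a1 ran from 1901 to 11457 with a median of 8947 in controls and stood at 6529, 7115, 2457, 2235 and 4766 in treated mice, with control replicate 5 and LNA-29 replicates 3 and 4 low together, and did not pass (-0.82, adjusted p = 0.351).

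**Figure D5:**
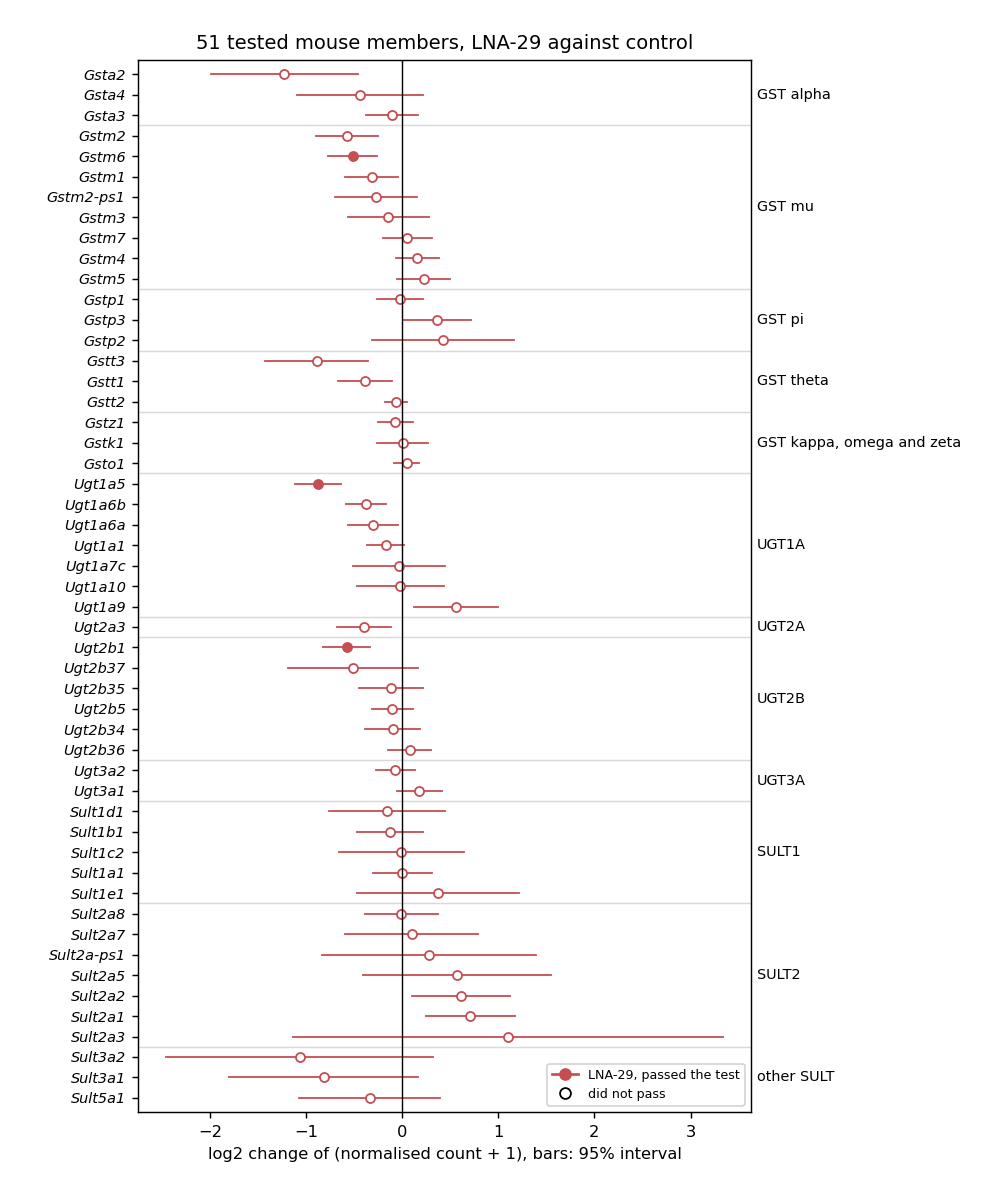
Log2 change of the 51 tested mouse members in LNA-29 against control mice, on the scale of the normalised count + 1, ordered by class; bars are 95% intervals and filled points passed the test. Ugt1a5, Ugt2b1 and Gstm6 are the filled points, and the widest interval is that of Sult2a3.

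Few of the supporting genes passed in mice. Of 22 tested genes of glutathione supply and use 0 passed, as did 0 of 8 GST-like, 0 of 11 UDP-glucuronate and 0 of 11 sulfate genes; these counts stand beside 2.43% of all genes. Gclc was at -0.12, adjusted p = 0.722, Ugdh at -0.49, adjusted p = 0.0963 and Papss2 at -0.014, adjusted p = 0.953. Of 25 Nrf2 targets 1 was lower, the ferritin gene Ftl1 (-0.36, adjusted p = 0.0337), and Nqo1 was at 0.033, adjusted p = 0.917. Of 23 receptors and regulators 0 passed: Nfe2l2 was at -0.11, adjusted p = 0.521, Keap1 at 0.025, adjusted p = 0.832, Nr1i2 at -0.027, adjusted p = 0.937, Nr1i3 at 0.056, adjusted p = 0.809 and Ahr at 0.041, adjusted p = 0.866. Of 21 other conjugating enzymes and hydrolases 1 was lower, the bile acid conjugating enzyme Baat (-0.37, adjusted p = 0.043). Of 14 P450 targets of CAR, PXR and AhR 1 was lower, Cyp3a25 (-0.51, adjusted p = 0.0309). Of 24 growth hormone and sex-dependent genes 1 was higher, Stat5b, which carries the growth hormone signal (0.45, adjusted p = 0.00566). These single calls and the marker counts that follow also stand beside 2.43% of all genes. Markers of other cells changed in 1 of 11 stellate (Col3a1, 1.23, adjusted p = 0.0358), 1 of 10 sinusoidal endothelial (Clec4g, 0.47, adjusted p = 0.0121), 1 of 2 pancreatic acinar (Cela2a, 1.37, adjusted p = 0.0221), 0 of 12 Kupffer cell and 0 of 9 bile duct genes. Col3a1 is a known target of miR-29. The summed Kupffer cell markers ran from 10703 to 14228 in controls and 8982 to 17432 in treated mice. Their part in the transferase results was not tested.

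Some symbols occur in both species. Gstm6 rose in rats at 6 months (1.39) and was lower in LNA-29 mice (-0.52), and Gstt3 rose in rats (3.09) and was at -0.89, adjusted p = 0.0791 in LNA-29 mice. Ugt1a9 was above 0 in both (0.64 in rats and 0.56 in mice, the latter without passing). The 2 tables were normalised separately, a shared symbol does not make 2 genes counterparts, and the differences between species were not tested. By their sex chromosome transcripts the rats were male and the mice female, so species and sex cannot be told apart here.

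The members left out of the tests were low in liver. In rats Sult1d1 reached 25.4, Gsto2 18.7, Sult5a1 12 and Gstt4 1.9 normalised counts in the highest library, and Gstm5 and Ugt3a2 were at 0 in every library. Sult4a1 stood at 0.852, 2.17, 2.73, 50 and 39 in the prediabetic rats, at 0, 1.3, 0 and 0 at 2 weeks, at 0 in every rat at 3 months, and ran from 0 to 1.02 at 6 months; its counts came mainly from prediabetic replicates 4 and 5. In mice the highest library value among the 20 untested entries was 21.8, for Gsta1, which stood at 0.842, 1.29, 3.38, 2.46 and 6.25 in treated mice and ran from 1.09 to 21.8 with a median of 11.3 in controls. The mouse entries at 0 in every library were Sult1c1, Sult1c2-ps1, Sult1c2-ps2, Sult2a-ps3, Sult2a-ps4, Sult6b2 and Ugt2a1, of which 4 are named as pseudogenes.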

How the data were processed

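Polyadenylated liver RNA was sequenced as Illumina TruSeq libraries, per the labels' protocols. STAR, Salmon and DESeq2 are named in the submitters' processing notes without versions or roles, as are 2 mouse builds (mm9, mm10), a rat build (rn6) and a human build (hg19); how RNA was extracted is not given in the sources used here. The deposited values are a signal per gene, normalised counts made by the authors: they are not whole and are not divided by gene length, and whole reads could not be recovered, so no count model was used. The small RNA libraries of the series were not used here.

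Genes with a table mean of at least 10 were tested with limma 3.58.1 (R 4.3.3) on log2(value + 1), with a variance trend and all groups of a table in 1 fit. Tests were two-sided, and p-values were adjusted by Benjamini-Hochberg over all genes tested of a table, with an adjusted p under 0.05 as the threshold. Fold changes are on this log2 scale and understate the change of low genes. Precision is limited by the number of libraries; no counting interval can be given. The script was tested on simulated data. Members named are the one with the most normalised counts in each class and, for each comparison, up to 10 (between diabetic stages, 5) of those past the threshold in each direction with a table mean of at least 50; others named were chosen after their values were seen. Members and lists were chosen with earlier results of these data known. The alternatives were a pseudocount of 10, no filter, median-of-ratios rescaling, no variance trend, only the groups compared, the replicate number as a block, leaving out each library and, added after seeing the data, leaving out the library least like the others in each group. Promoter and microRNA sequences come from RefSeq (rat, GRCr8).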

Additional observations from a re-analysis of the deposited data

Results flagged for a closer look

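In 98 groups of 4 to 6 libraries, 7 held a library far from the others, where chance alone flags about 1 group in 20. Among rats, Gsta3 was 3573 in 3-month replicate 3 against 1649 to 1998 in the other 3-month rats, Gsta4 was 4633 in prediabetic replicate 2 against 3097 to 3486, and Gstm7 was 28732 in 2-week replicate 3 against 25447 to 25781. Gstp1 was 593 in prediabetic replicate 2 against 336 to 398 and 686 in 6-month replicate 2 against 411 to 504; each is the library least like the others of its group. Among control mice, replicate 2 was high for Gstm1 (32823 against 22662 to 24046) and for Gstm6 (1276 against 811 to 939). All are normalised counts.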

How the results depend on the processing

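For the 29 log2 changes that passed the test, 474 values were recomputed: 366 stayed past the threshold, 108 did not, and 0 reversed. A pseudocount of 10 ended 0 of these calls. The calls of supply, regulator and marker genes were not followed through these settings. Median-of-ratios rescaling returned the same counts in all 7 comparisons, so it tests nothing and is left out of these numbers. The count at 3 months against prediabetic rats, 5, was 3 with a replicate block and ran from 3 to 7 when 1 library was left out. That at 3 months against 2 weeks, 2, was 1 with no filter on low values, 1 without a variance trend, 0 with only the groups compared, 0 without the least like libraries, and 0 to 3 when 1 library was left out. That at 6 months against 2 weeks, 7, was 0 with a replicate block, 1 without the least like libraries and 3 to 9 when 1 library was left out. The LNA-29 count, 3, was 13 without the least like libraries and 1 to 7 when 1 library was left out. The count at 6 months against prediabetic rats, 12, ran from 8 to 13 when 1 library was left out. Replicate numbers do not pair the animals: same-numbered libraries had correlations of their deviations from -0.184 to 0.216. With the replicate block the calls of Gsta3 (adjusted p = 0.0639) and Gstm7 (0.0559) at 3 months, of Gsta3 (0.0597) and Sult1c3 (0.0898) at 6 months, and of Gstm6 in mice (0.0807) were not made. Over all genes tested, the block moved the count at 3 months from 2248 to 944, at 6 months from 2875 to 1450, from 2 weeks to 3 months from 320 to 135, from 2 weeks to 6 months from 1203 to 12, between 3 and 6 months from 2 to 4 and in mice from 355 to 64. Without the least like libraries these counts were 55 from 2 weeks to 3 months, 226 from 2 weeks to 6 months, 0 between 3 and 6 months, 2 at 2 weeks and 998 in mice. The first was 162 with only the groups compared. The mouse count was 212 with no filter and 195 without a variance trend, and that between 3 and 6 months was 5 with a pseudocount of 10. The sex covariate was not run, since each table holds 1 state. The cause of these shifts was not tested. The counting depth behind single values is unknown.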

Other observations

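In the 3-month group, replicate 5 had the lowest values of Gstt3, Ugt1a9, Gstm3 and Gstm6 and the highest of Sult1c2a. It also had the lowest values of Gstm1, Gstm7 and Sult1e1, which were lower at 6 months than before diabetes. The same held for Gsta2, Gsta3, Gsta5, Sult1a1 and Sult1b1, so its low values were not confined to genes that rose. In the prediabetic group the highest library was 5.47 times the lowest for Gsta3.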
